A study of Rattus norvegicus with 16 samples.

Results

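Transcripts of 10 genes of insulin and insulin-like growth factor (IGF) signalling were followed: the growth factor Igf1, its carriers Igfbp1 and Igfbp2, the insulin receptor Insr, the docking proteins Irs1 and Irs2, the kinase subunit Pik3r1, the kinase Akt2, and the feedback inhibitors Socs2 and Socs3. They were chosen by symbol for their place in the pathway, with earlier results of these data known. All 10 were found among the 22517 symbols listed. RNA sequencing covered the liver and the epididymal fat pad of 8 male rats of the Zucker strain ZDF/GmiCrl-fa/fa, which are obese because they lack a functional leptin receptor. From 9 to 11 weeks of age 1 set of rats ate Purina 5008 with R-α-lipoic acid (LA), and the pair-fed (PF) set ate Purina 5008 alone. There were 4 biological replicates for each combination of tissue and feed, which makes 16 libraries. The fa/fa genotype, the sex, the base chow and 2-day rations handed out between 1 and 3 pm were common to every group. Lean rats and rats fed freely during the trial were not analysed here, and the LA dose and the time from the last ration to tissue collection are unstated in the labels. The comparisons ask whether LA feed altered these transcripts in either tissue, and how they are divided between liver and fat.

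Insulin binds its receptor, which phosphorylates the docking proteins IRS1 and IRS2. These recruit phosphatidylinositol 3-kinase, whose lipid product activates AKT2, and AKT2 in turn promotes glucose uptake in fat and keeps FOXO transcription factors out of the nucleus in liver. Circulating IGF1 comes mainly from the liver under the control of growth hormone and travels bound to IGF binding proteins. The liver gene Igfbp1 is a classic target that insulin represses, and SOCS proteins damp growth hormone, cytokine and insulin signals.

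The promoters of the liver-derived pair Igfbp1 and Igf1 and of Igfbp2 are shown because the ligand and both carriers were divided between the tissues. RefSeq sequence (GRCr8, 250 bases before to 50 after the start) was matched for 8 of the 10 genes, without Irs2 and Socs2. Igfbp1 lies at chr14:86261027-86261326, Igf1 at chr7:24172282-24172581 and Igfbp2 at chr9:81864561-81864860, all on the plus strand. Capitals mark CAAAACA or CAAAATA on either strand, the letters of the insulin-response element known from Igfbp1.
Igfbp1: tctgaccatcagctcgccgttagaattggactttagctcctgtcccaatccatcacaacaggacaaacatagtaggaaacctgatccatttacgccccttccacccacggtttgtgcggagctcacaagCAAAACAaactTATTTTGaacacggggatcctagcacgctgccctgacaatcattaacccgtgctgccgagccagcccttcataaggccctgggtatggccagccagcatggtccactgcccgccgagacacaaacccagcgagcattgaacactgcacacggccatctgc
Igf1: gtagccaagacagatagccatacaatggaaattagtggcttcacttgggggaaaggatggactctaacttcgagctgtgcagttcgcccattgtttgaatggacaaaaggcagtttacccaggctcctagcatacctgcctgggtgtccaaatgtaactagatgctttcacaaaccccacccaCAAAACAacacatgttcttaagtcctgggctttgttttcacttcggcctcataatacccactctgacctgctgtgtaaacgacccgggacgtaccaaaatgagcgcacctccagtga
Igfbp2: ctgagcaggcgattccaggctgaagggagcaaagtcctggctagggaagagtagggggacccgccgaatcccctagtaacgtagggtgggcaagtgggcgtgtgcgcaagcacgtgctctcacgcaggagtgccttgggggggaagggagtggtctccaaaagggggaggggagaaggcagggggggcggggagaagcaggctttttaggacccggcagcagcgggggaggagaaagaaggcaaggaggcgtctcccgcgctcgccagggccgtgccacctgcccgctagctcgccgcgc
The Igfbp1 window held CAAAACA at bases 130 to 136 and CAAAATA on the opposite strand at bases 141 to 147, a pairing found in 0.4625% of 27457 promoters of this length. Igf1 held CAAAACA at bases 184 to 190, a motif held by 6.202% of promoters, and 4.939% held the other form. The Igfbp2 window held neither form but had CACGTG, an E-box, at bases 111 to 116 (6.65% of promoters). Insr, not printed, held GTAAACA, a FOXO-type motif, on the opposite strand at bases 151 to 157 (3.762% of promoters). The STAT-type motif TTCNNNGAA was in 8.675% of promoters and in none of the 8 windows. All motifs were sought on both strands, matches of different motifs may overlap, and a match describes letters only.

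Between 9522 and 9738 genes reached 1 FPKM (fragments normalised for transcript length and sequencing depth) in a liver library, and between 11276 and 11480 in a fat library. Total fragments are unknown. Judged by the steps between low values, a single fragment added between 0.722 and 1 of what it added in the shallowest library, PF liver replicate 1. LA livers (0.722 to 0.894) and PF livers 3 and 4 (0.868 and 0.853) were deeper than that library, so the feeds overlapped in depth. The labelled tissues carried their markers: the 9 measured adipocyte markers summed to 36332 to 44022 FPKM in fat and 59.7 to 74.1 in liver, where Adipoq, Plin and Lep were at 0. The 12 hepatocyte markers summed to 38804 to 61400 FPKM in liver and 331 to 1432 in fat, with Alb and Tf listed at 0 in every liver library, so a 0 here can be a failed estimate.

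Liver and fat differed in which members they expressed far more than the 2 feeds did. The same held over all genes tested, so this contrast is not particular to the members. Liver had more Igf1, which was also abundant in fat, and nearly all Igfbp1, and fat had more Akt2 and Irs2 and nearly all Igfbp2. Under PF feed 5 of the 10 genes passed with limma (adjusted p under 0.05 and a log2 difference over 1 in size), 2 higher and 3 lower in liver, beside 47.4% of 11492 genes tested, 11.1% higher and 36.3% lower. Under LA feed 7 passed, 2 higher and 5 lower in liver, beside 46.4% of 11568 genes, 10.5% higher and 36% lower. Igfbp1 and Igfbp2 are in these counts but entered the test only through the tissue where they are high, with no library of the other at 1 FPKM, so they had to differ. Among the 8 members that reached 1 FPKM in both tissues 3 passed under PF and 5 under LA, beside 38.2% of 9477 and 37.3% of 9588 such genes. The libraries of liver and fat did not overlap for 6 members under PF (80.2% of all genes) and 8 under LA (79.9%), Igfbp1 and Igfbp2 included. FPKM values are shares of a library, and the median gene was lower in liver by -0.66 under PF and -0.65 under LA. With each library's median set equal, 6 members passed under each feed, 4 higher and 2 lower in liver under PF and 3 and 3 under LA, and the split over all genes was 2064 higher and 2253 lower in place of 1273 and 4174 under PF, and 1985 and 2292 in place of 1211 and 4161 under LA. Both tissues were taken from the same animals, but no label ties a liver library to a fat library.

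**Figure D1:**
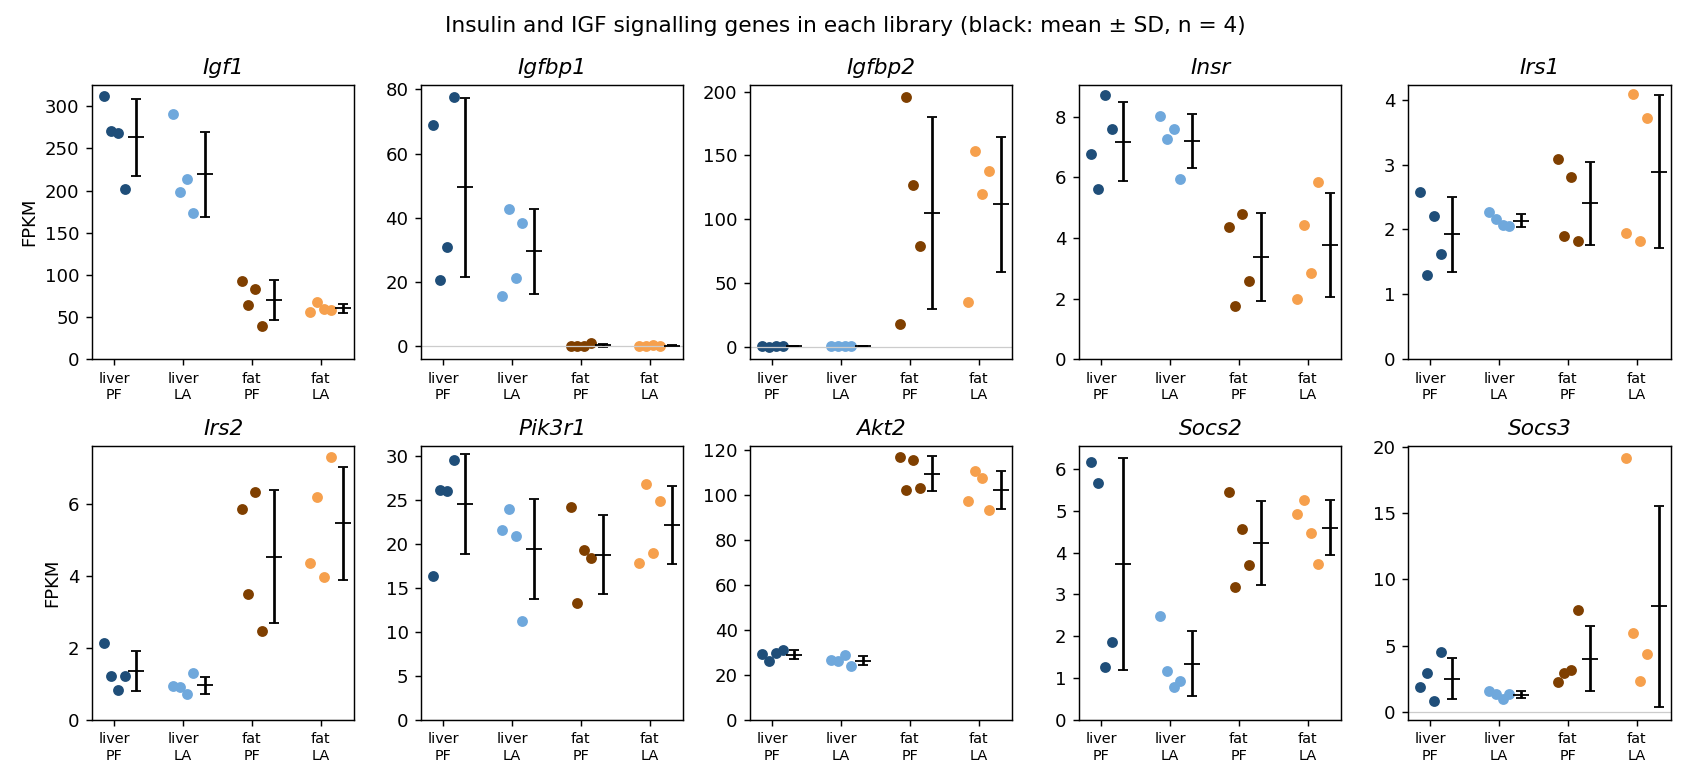
FPKM of each of the 10 genes (vertical axes, linear, 1 panel per gene) in each of the 16 libraries by tissue and feed, with black bars for the mean and SD (n = 4). Igf1 and Igfbp1 are high in liver, Igfbp2 is high in fat, and LA and PF points overlap for every gene in each tissue.

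Igf1, the growth factor, was the most abundant member in liver. Its liver levels were 312, 271, 268 and 202 FPKM in PF replicates 1 to 4 and 291, 198, 214 and 174 in LA replicates 1 to 4. Fat held 92.5, 64.6, 83.3 and 39.1 FPKM under PF and 56.0, 67.5, 58.8 and 58.5 under LA. Every liver library stood above every fat library, and within each tissue the feeds overlapped. Liver was higher by 1.95 on the log2(FPKM + 1) scale under PF (SE 0.24, adjusted p = 1.4e-05, limma) and by 1.82 under LA (SE 0.15, adjusted p = 7.3e-07).

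Igfbp1, the carrier that insulin represses, was a liver transcript. It measured 68.8, 20.7, 30.8 and 77.5 FPKM in PF livers and 15.5, 42.7, 21.4 and 38.5 in LA livers. In fat it was 0.128, 0.154, 0.209 and 0.955 FPKM under PF and 0.148, 0.168, 0.335 and 0 under LA. Liver replicates of 1 feed differed up to 3.74-fold, the feeds overlapped, and no fat library reached 1 FPKM. Mean liver levels were 137 times those of fat under PF and 182 times under LA, given without a test because Igfbp1 passed the filter only through liver. Mean Igfbp1 in fat was 0.731% of the liver mean under PF and 0.551% under LA, while the 10 hepatocyte markers above 0 in liver stood at 0.478% to 0.745% and 0.353% to 0.694%. The fat library with the most Igfbp1, PF replicate 4, also had the highest hepatocyte marker sum, 1432 FPKM, and LA replicate 4, with Igfbp1 at 0, had the lowest, 331. Their part in the fat value was not tested.

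Igfbp2, a carrier that leptin induces in rodent liver, showed the opposite distribution. Fat held 18.1, 196, 127 and 78.6 FPKM under PF and 34.8, 154, 120.1 and 138 under LA. Liver held 0.158, 0.079, 0.549 and 0.337 FPKM under PF and 0.141, 0.381, 0.228 and 0.427 under LA. No liver library reached 1 FPKM, and fat libraries of 1 feed differed up to 10.8-fold. Mean fat levels were 373 times those of liver under PF and 380 times under LA, likewise without a test because Igfbp2 passed the filter only through fat. Msln, a marker of the mesothelium that covers visceral fat, was at 23.0, 184, 177 and 117 FPKM in the same PF fat libraries and 69.96, 184, 152 and 188 under LA, so both genes were lowest in replicate 1 of each feed. The ratio of Igfbp2 to Msln ran from 0.497 to 1.06. All 6 mesothelial markers were detected in fat, with sums of 52.5 to 386 FPKM under PF and 140 to 455 under LA against 0.622 to 3.86 in liver. In bulk tissue fewer cells of a type and less RNA per cell cannot be told apart.

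The other 7 genes of the list of ligands and carriers also differed by tissue. Igfals, Igf2 and Igfbp5 reached 1 FPKM in only 1 tissue under both feeds, and Igfbp6 under LA, so their differences are descriptions. Of the remaining 4 under PF limma called 1 higher and 3 lower in liver, beside 9.94% and 28.3% of genes at 1 FPKM in both tissues. Of the remaining 3 under LA it called 1 higher and 2 lower, beside 9.05% and 28.2% of such genes. Igfals, the acid-labile subunit that holds IGF1 in the circulating complex, was at 93.4 ± 19.7 FPKM in PF liver and 0.518 ± 0.301 in PF fat. Igfbp4 was higher in liver by 1.46 and 1.43. Igfbp7 was lower in liver under both feeds (-3.84 and -4.08). Igfbp6 was at 0.706 ± 0.765 FPKM in PF liver and 314 ± 74.5 in PF fat. Igfbp3, at -1.53 and -1.31, was under the fold threshold with medians set equal (-0.85 and -0.64). By summed FPKM of Igfbp1 to Igfbp6, Igfbp4 made up 85.7% ± 6.39 (SD, n = 4) in PF liver and Igfbp1 10.7% ± 6.55. In PF fat Igfbp6 made up 46.1% ± 4.15, Igfbp4 22.8% ± 5.84 and Igfbp2 14.1% ± 7.95. Under LA these were 89.5% ± 3.30 and 6.88% ± 2.89 in liver, and 55.8% ± 3.19, 18.4% ± 5.72 and 14.0% ± 6.56 in fat.

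Insr, the insulin receptor, had more transcript in liver than in fat. Livers held 6.78, 5.63, 8.71 and 7.59 FPKM under PF and 8.02, 7.27, 7.59 and 5.95 under LA. Fat held 4.37, 1.76, 4.79 and 2.56 FPKM under PF and 1.97, 4.43, 2.85 and 5.84 under LA. Each feed's liver libraries lay above its fat libraries, with means 2.13 times as high under PF and 1.91 times under LA. The limma differences of 0.95 (SE 0.22, adjusted p = 0.0020) and 0.85 (SE 0.23, adjusted p = 0.0054) were under the fold threshold; with medians set equal they were 1.63 and 1.52 and passed. Insr also passed under PF without fat replicate 1 or 3 or liver replicate 2 (1.05 to 1.11) and under LA without fat replicate 4 (1.04). Igf1r, the receptor for IGF1, was at 0.0191 to 0.102 FPKM in liver and 0.355 to 1.12 in fat.

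Irs1 and Irs2, the docking proteins, differed in their division between tissues. Irs1 was 2.58, 1.30, 2.21 and 1.62 FPKM in PF livers, 2.27, 2.16, 2.06 and 2.05 in LA livers, 3.08, 1.89, 2.80 and 1.82 in PF fat and 1.94, 4.09, 1.82 and 3.72 in LA fat. These ranges overlapped, with tissue differences of -0.22 (95% interval -0.60 to 0.16) and -0.26 (-0.68 to 0.16) that did not pass and that turned to 0.45 and 0.41 with medians set equal. Irs2 was 2.13, 1.22, 0.816 and 1.22 FPKM in PF livers and 0.929, 0.901, 0.730 and 1.29 in LA livers. In fat Irs2 was 5.85, 3.49, 6.32 and 2.46 FPKM under PF and 4.36, 6.19, 3.97 and 7.28 under LA. All fat libraries were above all liver libraries. Irs2 was lower in liver by limma under PF (-1.20, SE 0.24, adjusted p = 0.00074) and LA (-1.69, SE 0.17, adjusted p = 3.8e-06), and with medians set equal the PF call was lost (-0.53, adjusted p = 0.061) and the LA call was not (-1.02).

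**Figure D2:**
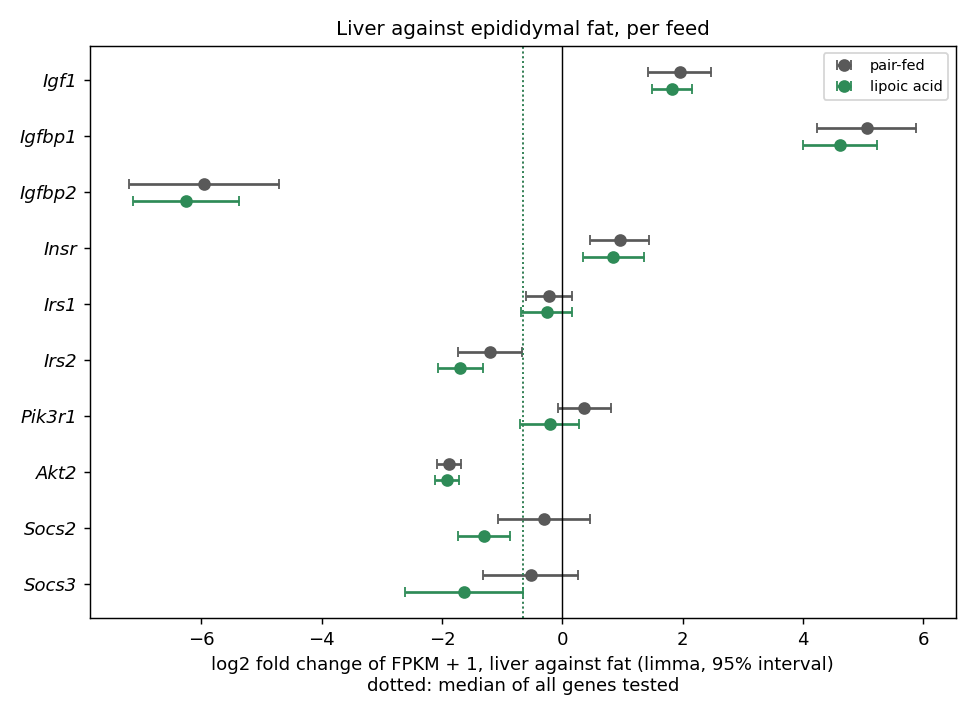
Log2 difference of liver against fat with 95% intervals for the 10 genes under each feed, with dotted lines at the median of all genes tested (-0.66 under PF and -0.65 under LA). Igfbp1 and Igf1 lie far to the liver side and Igfbp2 and Akt2 to the fat side of those medians. Igfbp1 and Igfbp2 passed the filter only through the tissue where they are high, so their values are descriptions.

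Within fat the receptor and both docking proteins were high in the same libraries. PF replicates 1 and 3 and LA replicates 2 and 4 held Insr at 4.37 to 5.84 FPKM against 1.76 to 2.85 in the other 4, Irs1 at 2.80 to 4.09 against 1.82 to 1.94, and Irs2 at 5.85 to 7.28 against 2.46 to 4.36. A measure of the whole library moved with them: the median centred log2 value of the longest 10% of genes minus that of the shortest 10% was 0.20, 0.31, 0.19 and 0.26 in those 4 libraries and -0.38 to -0.14 in the others. It spanned -0.16 to 0.11 in liver. Its part in the spread of these 3 genes was not tested.

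**Figure D3:**
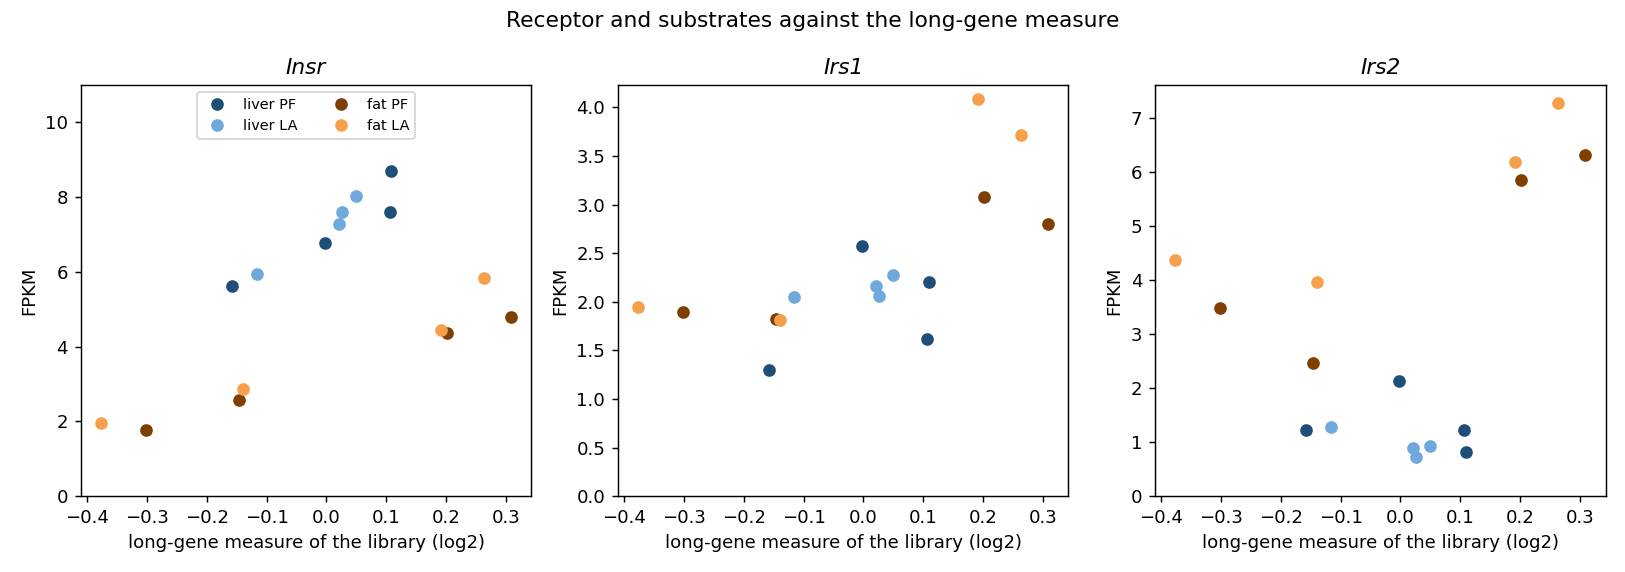
FPKM of Insr, Irs1 and Irs2 (vertical axes) against the long-gene measure of each library (log2 scale, horizontal axis), by tissue and feed. The 4 fat libraries with a positive measure, 2 from each feed, hold the highest fat values of all 3 genes.

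Pik3r1, the regulatory subunit of phosphatidylinositol 3-kinase, had group means between 18.8 and 24.5 FPKM. It was 16.4, 26.2, 26.0 and 29.6 FPKM in PF livers, 21.6, 24.0, 20.9 and 11.2 in LA livers, 24.2, 13.3, 19.3 and 18.4 in PF fat and 17.8, 26.9, 19.0 and 24.9 in LA fat. All 4 groups overlapped, and the tissue differences of 0.37 under PF (-0.07 to 0.80) and -0.21 under LA (-0.71 to 0.28) did not pass. With medians set equal the PF value was 1.04 and passed, and the LA value turned to 0.46. Akt2, the AKT form of insulin target tissues, varied little between replicates, with a coefficient of variation of 7.16% to 8.17% in each group. Livers held 29.1, 26.0, 29.9 and 31.1 FPKM under PF and 26.5, 26.1, 29.0 and 23.9 under LA, and fat held 117, 103, 116 and 103 under PF and 97.2, 111, 108 and 93.4 under LA. Every fat library stood above every liver library, and Akt2 was lower in liver by -1.88 (SE 0.090, adjusted p = 4.3e-09, limma) under PF and -1.92 (SE 0.091, adjusted p = 1.0e-08) under LA.

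Of 24 measured genes in the list of the PI3-kinase and AKT branch, 10 of 24 tested were lower in liver under PF and 10 of 23 under LA by limma, beside 36.3% and 36% of all genes, with 0 higher under either feed beside 11.1% and 10.5%. Of the 20 that reached 1 FPKM in both tissues 7 were lower under each feed, beside 28.3% and 28.2% of such genes. Pde3b, the phosphodiesterase through which insulin restrains lipolysis, was lower in liver by -1.60 and -1.71. The docking list had 5 of 8 lower and 0 higher under each feed, beside the same shares of all genes. Among those at 1 FPKM in both tissues 4 of 7 were lower, beside 28.3% and 28.2% of such genes. Irs3, a docking protein of rodent fat and 1 of these 4, was at 6.45 ± 2.27 FPKM in PF liver and 13.8 ± 2.10 in PF fat. The Irs3 call was lost with medians set equal under both feeds (-0.36 and -0.99), and under PF also without fat replicate 1 or 3 or liver replicate 2 (-0.998 to -0.79). The medians of the 2 lists under PF were -0.92 and -1.14, beside -0.66 for all genes.

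Socs2, a growth hormone-induced inhibitor of the growth hormone receptor, varied widely among the livers. It was 6.16, 5.67, 1.26 and 1.85 FPKM in PF livers and 2.48, 1.16, 0.784 and 0.931 in LA livers. In fat it was 5.45, 3.18, 4.57 and 3.69 FPKM under PF and 4.91, 5.27, 4.47 and 3.74 under LA. PF liver replicates 1 and 2 stood far above the rest of the livers, and PF replicates 3 and 4 lay among the LA values. The tissue difference did not pass under PF (-0.30, 95% interval -1.06 to 0.46) and passed under LA (-1.30, SE 0.20, adjusted p = 0.00010, limma), where it was -0.63 and under the fold threshold with medians set equal. Socs3, the inhibitor induced by cytokines and insulin, was 1.84, 2.90, 0.8001 and 4.50 FPKM in PF livers and 1.53, 1.37, 0.951 and 1.32 in LA livers. Fat held 2.28, 2.96, 3.12 and 7.70 FPKM of Socs3 under PF and 19.2, 5.94, 2.33 and 4.38 under LA. LA fat replicate 1 and PF fat replicate 4 held the highest values of the 16 libraries. The tissue difference was -0.52 (-1.31 to 0.27) under PF and -1.63 (SE 0.44, adjusted p = 0.0053) under LA, where it was -0.96 with an adjusted p of 0.068 with medians set equal.

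Between the feeds no member passed in liver in the main fit. With the replicate number as a block 1 member, Socs2, passed. The labels do not say that these numbers pair PF with LA rats, so no conclusion is drawn from that call. Of 9 members tested (Igfbp2 was below the filter) limma called 0, beside 4.48% of 9710 genes, and 1 member, Socs2, had an unadjusted p under 0.05, beside 20.1% of genes. LA and PF livers overlapped for all 10 members, where 12.3% of genes did not overlap. Socs2 averaged 3.74 ± 2.54 FPKM under PF and 1.34 ± 0.778 under LA (log2 difference -0.89, SE 0.37, 95% interval -1.71 to -0.08, adjusted p = 0.21). Igfbp1 averaged 49.4 ± 27.9 and 29.5 ± 13.1 FPKM (-0.64, -1.59 to 0.30, adjusted p = 0.45), and Socs3 2.51 ± 1.58 and 1.29 ± 0.246 (-0.50, -1.11 to 0.11, adjusted p = 0.34). Igf1 (-0.27, -0.64 to 0.10), Pik3r1 (-0.34, -0.85 to 0.17) and Irs2 (-0.24, -0.59 to 0.11) were lower in the mean. The intervals were narrowest for Akt2 (-0.13, -0.31 to 0.05), Insr (0.01, -0.26 to 0.29) and Irs1 (0.12, -0.17 to 0.41). The median over the 9 members was -0.27. Leaving out 1 library moved several of these values by over 1.5 times: Igfbp1 to -0.42 without PF replicate 1, -0.98 without PF replicate 2, -0.36 without PF replicate 4 and -0.38 without LA replicate 1. Socs3 moved to -0.78 without PF replicate 3 and -0.25 without PF replicate 4. Pik3r1 moved to -0.52 without PF replicate 1 and -0.11 without LA replicate 4, and Igf1 to -0.42 without LA replicate 1 and -0.17 without LA replicate 4. Irs1 ran from 0.01 to 0.23 and Insr from -0.08 to 0.10. Irs2 stayed above the filter in only 4 of these fits, where it ran from -0.35 to -0.18. Its difference in mean log2(FPKM + 1) without PF replicate 1, where it was below the filter, was -0.09. None of these genes passed in any of these fits.

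In fat limma called 0 of 9 members (Igfbp1 was below the filter), beside 0.0174% of 11501 genes, with 0 at an unadjusted p under 0.05 beside 3.92% of genes. The feeds overlapped for all 10 members, where 2.08% of genes did not overlap. The adjusted p was 1.00 for each, and the widest intervals were those of Igfbp2 (0.32, -1.25 to 1.90) and Socs3 (0.61, -0.53 to 1.74). The Igfbp2 value turned to -0.29 with mesothelial markers as a covariate, chosen after seeing the data, and to -0.36 without PF replicate 1. It was 0.81 without LA replicate 1. The Socs3 value was 0.10 without LA replicate 1, the library with the highest Socs3, and 0.97 without LA replicate 3. Akt2 had the narrowest (-0.10, -0.31 to 0.11). Insr (0.12, -0.56 to 0.80), Irs1 (0.16, -0.34 to 0.67), Irs2 (0.26, -0.32 to 0.83), Pik3r1 (0.23, -0.18 to 0.65), Socs2 (0.11, -0.23 to 0.45) and Igf1 (-0.14, -0.66 to 0.37) lay between. Two-sided exact permutation tests over both tissues gave 0 of 20 with an unadjusted p under 0.05, where the smallest p possible is 0.0286. The lowest was 0.143 for Socs2 in liver (adjusted p = 0.70).

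**Figure D4:**
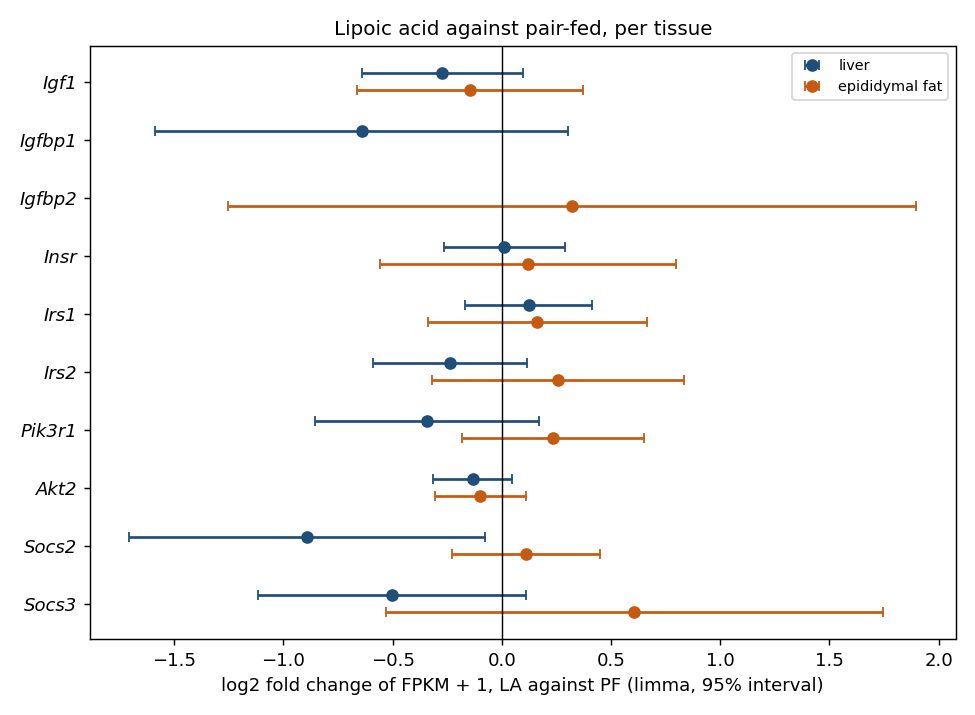
Log2 difference of LA against PF with 95% intervals for the 9 genes tested in each tissue. Igfbp2 was below the filter in liver and Igfbp1 in fat. Most intervals include 0, the exception being Socs2 in liver (-1.71 to -0.08), and those of Igfbp2 and Socs3 in fat are the widest.

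The difference of the feed effects between tissues was tested over the 16 libraries, and limma called 0 of 10 members beside 0.381% of 12079 genes. At an unadjusted p under 0.05 there was 1 member, Socs2, beside 8.20% of genes. Its value, liver minus fat, was -1.003 (95% interval -1.94 to -0.07, adjusted p = 0.55), and that of Socs3 was -1.11 (-2.44 to 0.22, adjusted p = 0.73).

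Some pathway genes outside the 10 did pass between the feeds in liver. The lists were chosen with earlier results of these data known, so their counts beside the share of all genes are descriptions. Of 4 tested genes in the receptor list 2 fell, beside 2.21% of all genes: Prlr, the prolactin receptor, from 49.2 ± 7.82 to 29.8 ± 6.83 FPKM (-0.72, SE 0.17, adjusted p = 0.035, limma) and Gcgr, the glucagon receptor, from 77.1 ± 5.11 to 61.0 ± 3.93 (-0.33, SE 0.076, adjusted p = 0.034). Among 12 brakes on insulin signalling 1 fell and 1 rose by limma, beside 2.21% and 2.27% of all genes. Trib1, a pseudokinase, fell from 10.1 ± 2.78 to 6.09 ± 0.722 FPKM (-0.62, adjusted p = 0.043, limma). Trib3, a pseudokinase that binds AKT, rose by 2.50 (SE 0.24, adjusted p = 0.00045, limma). Prlr, Gcgr and Trib1 each lost the call in 6 of 8 fits with 1 library left out, with adjusted p up to 0.094, 0.10 and 0.10. In these livers the hepatocyte marker sum was 49419 to 61400 FPKM under PF and 38804 to 46678 under LA, and the macrophage marker sum 116 to 144 and 159 to 217, and their part was not tested. Of the genes insulin induces in liver 3 of 7 fell (Acly, Pklr and Pnpla3), beside 2.21% of all genes. By limma 5 of the 7 had an unadjusted p under 0.05, beside 20.1% of genes. Of those it represses, Igfbp1 and Irs2 among them, 0 of 5 passed, beside 4.48% of genes, and 0 had an unadjusted p under 0.05. A count of 0 among 5 genes is near the 4.48% share. The medians of the induced and repressed lists were -0.89 and -0.03. Leaving out LA liver 2, or either of PF livers 3 and 4, ended the Acly call, with adjusted p up to 0.077.

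Of 7 tested growth hormone-driven genes, Igf1 and Socs2 included, limma called 0 in liver beside 4.48% of genes, with 3 at an unadjusted p under 0.05 beside 20.1%, and their median was -0.33. Cish, a SOCS family member, was 9.10, 8.62, 0.361 and 10.7 FPKM in PF livers and 1.67, 2.21, 0.338 and 1.08 in LA livers. PF replicate 3 stood apart from the other PF livers, and the groups overlapped only through it. The log2 difference was -1.51 (SE 0.60, adjusted p = 0.19, limma), and without PF replicate 3 it was -2.24 with an adjusted p of 0.0020. Over the 8 limma fits with 1 library left out it ran from -2.24 to -1.20. Of these fits 7 left Cish uncalled, with adjusted p up to 0.35. Igfals had -0.40 (adjusted p = 0.26). In fat limma called 0 of 91 tested pathway genes outside the 10, with 8 at an unadjusted p under 0.05 beside 3.92% of all genes.

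The genes whose profile over the 16 libraries lay nearest to each member (root-mean-square difference of centred log2(FPKM + 1), 9696 genes searched) are given as a description. Socs3 lay nearest to Junb (0.27) and Ier2 (0.39), immediate early genes. Junb was 14.5, 13.2, 14.5 and 29.5 FPKM in PF fat and 58.6, 21.6, 10.6 and 16.6 in LA fat, so LA replicate 1 was highest for both genes and PF replicate 4 was the next highest. Igfbp2 lay nearest to Fmod (0.35) and Msln (0.39), Akt2 to Dag1 (0.099) and Flot2 (0.10), and Insr to Ncoa2 (0.13) and Grlf1 (0.14). Irs1 lay nearest to Slc12a7 (0.14) and Htt (0.15), Irs2 to Lrp1 (0.19) and Cplx2 (0.20), and Socs2 to Nrep (0.29) and Rgs3 (0.40). Igf1 lay nearest to Rxra (0.26) and Tmem63b (0.26), Pik3r1 to Dhdh (0.24) and Eif2c1 (0.25), and Igfbp1 to Rtp3 (0.49) and Ddc (0.50), the loosest pairings.

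**Figure D5:**
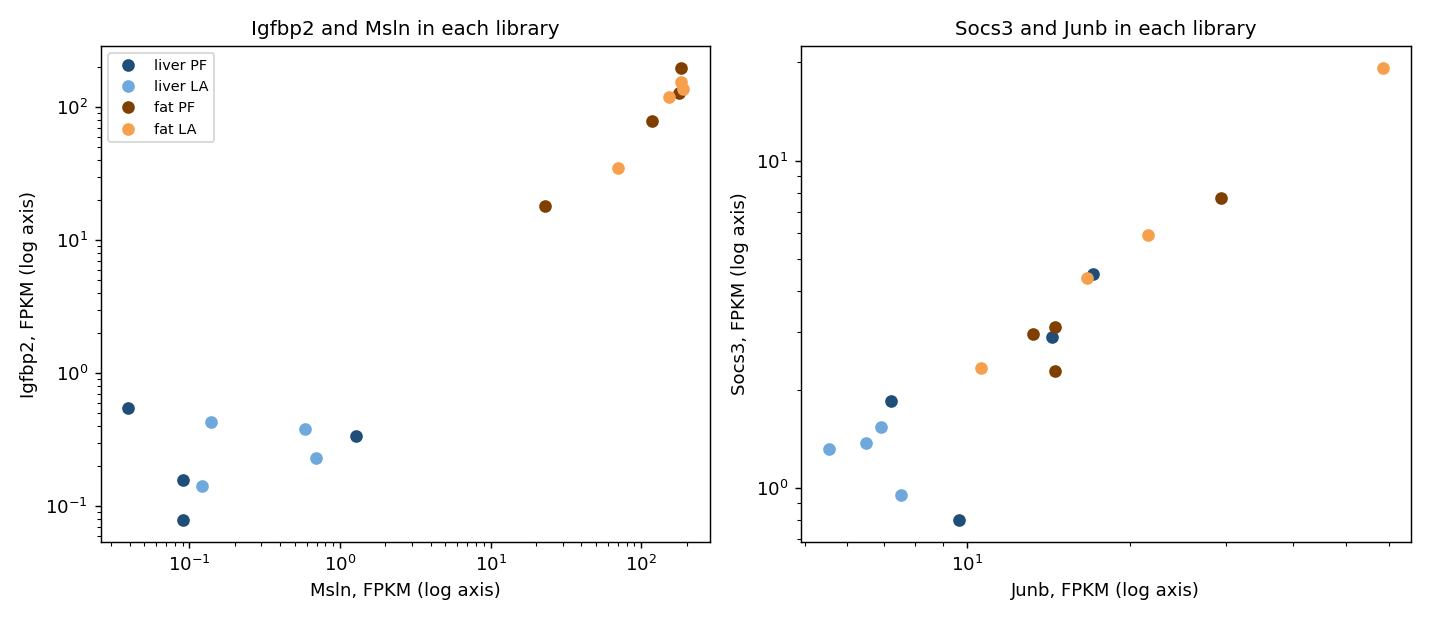
FPKM of Igfbp2 against Msln and of Socs3 against Junb (log axes) in the 16 libraries, by tissue and feed. The lowest fat values of Igfbp2 and Msln share libraries, and LA fat replicate 1 is highest for Socs3 (19.2 FPKM) and Junb (58.6).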

How the data were processed

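Liver and epididymal fat were sequenced in 4 groups of 4 libraries, grouped by the labels' titles. The library kit (TruSeq V2, per the labels' protocols) does not keep strand, so reads from antisense genes are not separated. CASAVA 1.8.2, TopHat and Cuffdiff were used, per the submitters' processing notes. Build, annotation and settings: not given in the sources used here. Per the file headers, the authors deposited FPKM, 1 value for each symbol in each library. Counts were not part of these tables, so no count test was run.

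Tests used limma 3.58.1 on log2(FPKM + 1) (R 4.3.3, mean-variance trend, Benjamini-Hochberg adjustment over all genes tested), over genes that reached 1 FPKM in 4 or more of the libraries fitted. This scale understates changes of low genes. Tissues were fitted apart for the feed comparison, and their difference over 16 libraries. Members were also compared with exact permutation tests of 4 against 4 libraries (70 arrangements). The fit was tested on simulated data. The fits were repeated with median centring, without the filter, with a pseudocount of 0.1, with the replicate number as a block, with each library left out, and with all 16 libraries together. Covariates for the long-gene measure and for mesothelial markers were chosen after seeing the data. Libraries of a group were compared and none were identical.

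The members and the 10 pathway and 9 cell type lists were chosen with earlier results of these data known. All members are named, with up to 4 genes of a list by smallest adjusted p and any called, and the 2 nearest profiles per member; the text names part of these. Of the pathway genes 107 carried the same symbol in the tables, 5 were found through RefSeq synonyms (GRCr8), and 2 (Sh2b1, Rheb) were not found. Figures were drawn with matplotlib 3.10.9.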

Additional observations from a re-analysis of the deposited data

Results flagged for a closer look

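Fat of PF replicate 4 stood apart from the other 3 PF fat libraries for 2 members. Igfbp1 was at 0.955 FPKM there against 0.128 to 0.209, with a gap to the nearest library of 0.901 of the group's range. Socs3 was at 7.70 FPKM against 2.28 to 3.12, with a gap of 0.846 of the range. Both exceed Dixon's 95% critical value for 4 samples. Over the 40 sets of 4 libraries looked at, chance passes about 1 in 20.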

How the results depend on the processing

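Replicates are 4 per group and fragment totals are unknown, so small feed differences are not excluded. Each interval is on the log2(FPKM + 1) scale, so for low genes fold changes larger than it shows remain possible. FPKM are shares, so tissue differences move with scaling. Both tissues came from the same rats. Values under 1 FPKM, such as Igfbp1 in fat and Igfbp2 in liver, rest on few fragments. Of 701 values of members under the alternatives, 660 kept their direction and side of the threshold, 28 changed sign, 10 newly passed and 3 no longer passed; the cause was not tested.

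Deviations of same-numbered libraries had correlations of -0.43 to 0.29, and no set of groups had all 4 pairs over 0.1. Such values, centred on groups of 4 libraries, cannot show whether the numbers pair the libraries. With the replicate block 1 member, Socs2, passed in liver (adjusted p = 0.041), as did Cish (0.042), while Gcgr (0.067) and Trib1 (0.070) did not; the genes called were 476 in liver, 1 in fat and 37 for the difference of feed effects. In fat the count of 2 was 1 with a pseudocount of 0.1 and 7 with all 16 libraries in one model, and for the difference the count of 46 was 22 with no filter. With 1 library left out the counts were 208 to 404 in liver (435 with all; 208 without LA replicate 2, 267 without PF replicate 1), 0 to 2 in fat and 19 to 60 for the difference, and 0 to 1 exact tests in liver had p under 0.05 (Socs3 without PF replicate 3, exact p = 0.0286). Leaving out a library dropped Igfbp1 or Igfbp2 under the filter in each tissue fit, and 4 to 5 members were called under PF and 6 to 7 under LA.

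Median centring turned the liver-against-fat values of Irs1 (0.45), Socs2 (0.37) and Socs3 (0.15) under PF and of Irs1 (0.41), Pik3r1 (0.46) and the growth hormone receptor gene Ghr (0.033) under LA. It left Akt2 (-1.21 and -1.25) and Igf1 (2.62 and 2.49) called under PF and LA. With a pseudocount of 0.1 Insr passed (1.16 and 1.02), and the Igfbp1 difference of feed effects was 0.020. With mesothelial markers as a covariate the fat feed value of Igfbp2 was -0.29. With 1 library left out the difference of feed effects ranged from -0.085 to 0.0099 for Akt2, -0.28 to 0.12 for Igf1, -0.78 to 0.38 for Igfbp2, -0.31 to 0.093 for Insr and -0.18 to 0.11 for Irs1. The feed value in fat ranged from -0.40 to 0.012 for Igf1, -0.36 to 0.81 for Igfbp2 and -0.081 to 0.32 for Insr, that of Insr in liver from -0.084 to 0.10, and the tissue value of Pik3r1 under LA from -0.33 to 0.021. Prlr, Trib1 and Acly lost the liver call with no filter (adjusted p = 0.084, 0.096 and 0.077), Gcgr with all 16 libraries (0.20) and Prlr with the long-gene covariate (0.051).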
